A study of Mus musculus with 6 samples.

Results

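The untreated state of RAW264.7, a mouse macrophage-like cell line, was described from 3 control libraries out of the 6 libraries of the study. The members were the count columns whose header names mark them as control, and their label states that the cells received no treatment. The other 3 libraries, from cells exposed to itaconate for 24 h, were not used. No vehicle is named for the control cells, and no label says whether the 3 libraries came from separate cultures, so each spread given here is that between libraries and may be technical.

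RAW264.7 was derived from a tumour of a BALB/c mouse induced with Abelson leukaemia virus, and it is 1 immortal line that keeps dividing in culture, unlike most tissue macrophages. Macrophages are phagocytes of the myeloid lineage. They depend on the transcription factor PU.1 and on signals through the CSF1 receptor, sense microbes through Toll-like receptors, lectins and cytosolic sensors, break down engulfed material in lysosomes, and release lysozyme, chemokines and cytokines. Resting cells keep many inflammatory genes silent until a microbial or cytokine signal arrives.

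Polyadenylated RNA was counted with 3′ QuantSeq, which reads transcripts close to their 3′ ends. A transcript therefore gives about the same number of reads whatever its length, and levels were compared between genes as CPM (counts of a gene in every 1000000 counts of its library) without division by length. The 3 libraries held 5202626 to 6098934 counts, which sum to 17232313. A gene was taken as detected when it had at least 3 counts in every library and a mean of at least 1 CPM. By that rule 10968 of the 35976 gene symbols in the table were detected (30.5%), and they held 99.78% of the counts. No count at all was seen for 19749 symbols, which allows a level of up to 0.174 CPM over the 3 libraries together (3 counts of the summed total, for counting error only). Of the detected genes, 2884 lay from 1 to under 10 CPM, 6175 from 10 to under 100, 1801 from 100 to under 1000, and 108 at 1000 CPM or more. The median detected gene stood at 28.0 CPM. Levels below are means ± SD over 3 libraries, and values in sequence are libraries 1, 2 and 3. Some genes that cells commonly express strongly were low here, such as Pgk1 at 3.36 and Actg1 at 3.38 CPM. A low or missing count, or a ratio between genes, therefore describes this count table and may differ from the level in the cells. The spread between libraries does not measure a counting bias that all 3 libraries share.

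Levels are given first for 5 genes used as markers of macrophages and of their lysosomes and iron stores. They were chosen with earlier results of these data known, so their levels describe the cells and do not test the label. Csf1r, the receptor that keeps macrophages alive, was at 3783, 4084 and 3378 CPM (3748 ± 354). Spi1, which encodes PU.1, was at 639, 571 and 601 CPM (604 ± 33.8). Cd14, the surface protein that hands lipopolysaccharide to its receptor, was at 1436, 1581 and 1576 CPM (1531 ± 82.5). All 3 were high in every library, and the lowest of these 9 values was more than 20 times the median detected gene. Lipa, the lysosomal acid lipase, was at 1597, 1413 and 1512 CPM (1507 ± 92.1). Fth1, the ferritin heavy chain, was at 6238, 5759 and 5692 CPM (5896 ± 298). All 5 markers were thus present at high levels in every library. The whole last 300 exonic bases of Csf1r lie across from an exon of Hmgxb3 on the other strand, and since the strand setting of the counting is not given, reads of that neighbour could not be told apart from Csf1r by position. In the RefSeq annotation of GRCm38.p6, Spi1 spans 91082374 to 91115759 on chromosome 2, and Lipa 34492316 to 34527474 and Fth1 9980600 to 9985111 on chromosome 19, while Csf1r and Cd14 lie on chromosome 18.

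The 20 most abundant transcripts combined housekeeping genes with macrophage products. ND4, a mitochondrially encoded subunit of complex I, came first at 18354 ± 2578 CPM, and CYTB, the cytochrome b of complex III, second at 10642 ± 1031 CPM. Next came Lyz1, a secreted lysozyme, at 10586 ± 1066 CPM, and Gpnmb, a transmembrane glycoprotein of phagocytes and melanocytes, at 10092 ± 440 CPM. The order of CYTB, Lyz1 and Gpnmb was not the same in every library. ND1 and Actb, a complex I subunit and the cytoplasmic actin, followed at 9265 ± 496 and 8866 ± 338 CPM. Malat1, a nuclear long noncoding RNA, was at 6552 ± 384 CPM. Lgals3, the lectin galectin-3, was at 4904 ± 342 CPM. S100a6 and S100a4, small calcium-binding proteins, were at 4944 ± 279 and 4686 ± 21.5 CPM. The rest of the 20 were Rplp1, Fth1, ND2, Hsp90ab1, Rps24, Rpl37, Rps26, Rack1, Rps20 and Eef2, from 6132 down to 4152 CPM. Of these 20 genes, 4 were mitochondrially encoded, 5 encoded ribosomal proteins, and 4 belonged to the macrophage and metabolism lists. Among the top 100 the counts were 6, 39 and 26. The top 100 genes took 30.8% of the counts. Mitochondrially encoded genes took 4.81% ± 0.444 and ribosomal protein genes 11.9% ± 0.471. Both shares describe this count table. Of 13 mitochondrially encoded genes 6 were not detected, and some ribosomal protein genes had mostly shared ends, such as Rplp1 (72.0%) and Rps26 (67.8%).

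The genes described by function came from 35 lists. Pooled over the macrophage and metabolism lists, 498 of 668 distinct genes were detected (74.6%), against 30.5% of all symbols in the table. Over 7 lists of markers of other blood and tissue lineages, 17 of 107 were detected (15.9%). All symbols include ones that encode no protein, so these shares are not like for like. Within the pooled lists the share ran from 15% for tissue macrophage markers and 30% for monocyte markers to 97.1% for lysosomal proteins. The pooled shares therefore do not test the label of the cells. Within the lists, 540 pairs of detected members stood next to each other in the order of their means. The order held in all 3 libraries for 272 of these pairs, and the library ranges overlapped for 332, so the order of close neighbours is often not fixed by these data.

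**Figure D1:**
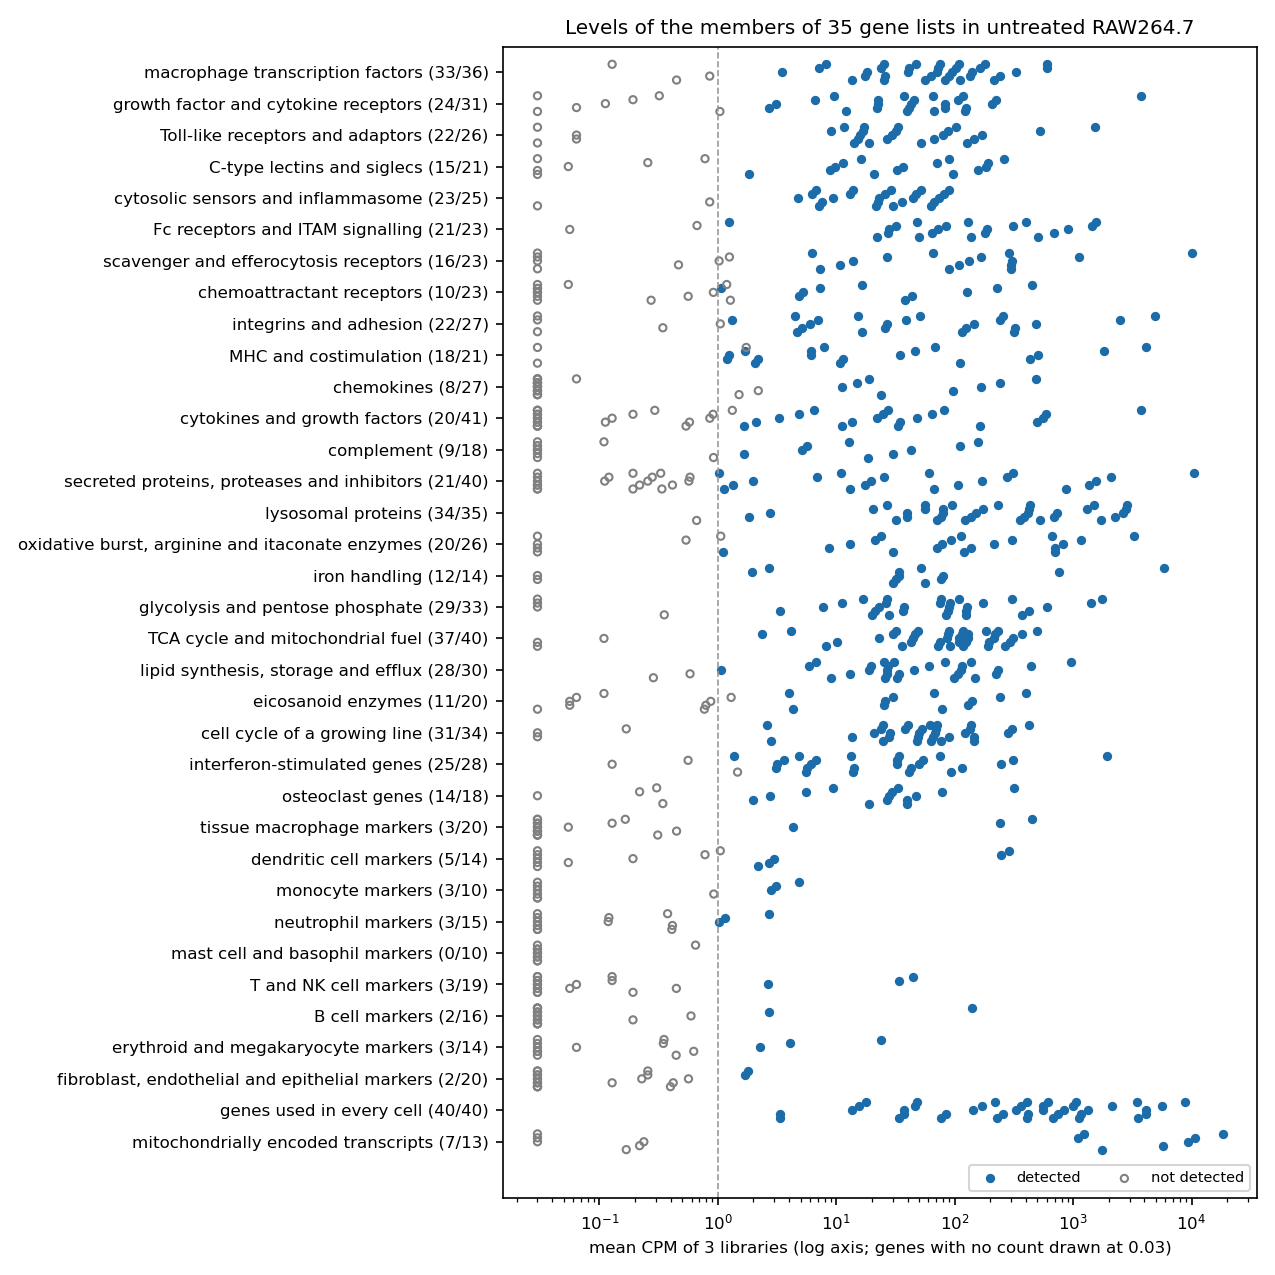
Mean CPM over the 3 untreated libraries (log axis) for each member of the 35 gene lists, 1 point per gene, filled where detected and open where not. The dashed line marks 1 CPM, genes with no count are drawn at the left edge, and the numbers beside each name are detected and listed genes, such as 33 of 36 macrophage transcription factors and 0 of 10 mast cell and basophil markers.

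Transcription factors of the macrophage lineage were nearly all present: 33 of 36 were detected, and the median of the detected ones was 72.5 CPM. Spi1 led the list together with Mef2c, a MADS-box factor, at 599, 583 and 609 CPM (597 ± 13). Their library ranges overlapped, and Mef2c was above Spi1 in libraries 2 and 3. Nfe2l2, which encodes NRF2, the regulator of antioxidant genes, was next at 316, 326 and 340 CPM (327 ± 12.3). Irf8, needed for monocyte and dendritic cell development, was at 243 ± 16.5 CPM. Klf6 was at 215 ± 6.99 and Zeb2 at 164 ± 10.4 CPM. Mitf, Bhlhe41 and Fli1 stood at 140 ± 9.60, 135 ± 16.2 and 111 ± 6.16 CPM. The C/EBP factors, which act with PU.1 on myeloid genes, lay close together, with Cebpb at 94.3 ± 17.1, Cebpa at 75.4 ± 4.17 and Cebpd at 70.8 ± 5.25 CPM. Spi1 exceeded Cebpa 9.04, 7.30 and 7.76 times in the 3 libraries. Pparg, the lipid-sensing factor of alveolar macrophages, had 4, 8 and 3 counts, a mean of 0.854 CPM, and fell under the detection limit. Gata6 and Spic, factors of peritoneal and of splenic red pulp macrophages, had 7 and 2 counts in all, all of them in library 3.

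Receptors for growth factors and cytokines were present in 24 of 31 cases. Csf1r stood far above the rest, since the next receptor, Ifnar2, was at 215, 224 and 237 CPM (225 ± 11.1). The receptor for GM-CSF was represented by its alpha chain Csf2ra at 206, 255 and 162 CPM (208 ± 46.2) and its beta chain Csf2rb at 41.3 ± 3.80 CPM. Csf2ra exceeded Csf2rb 4.99 ± 0.660 times. Il6ra, Ifngr1 and Tgfbr2, which bind interleukin-6, interferon gamma and TGF-beta, were at 124 ± 1.5, 123 ± 15.9 and 117 ± 20.8 CPM, and the order of these 3 was not separable at this spread. Il2rg, the chain shared by several interleukin receptors, was at 107 ± 19.0 CPM. The paired chains of other receptors were unequal in the same way in each library. Ifnar2 exceeded Ifnar1, its partner in the type I interferon receptor, 9.53, 11.8 and 9.08 times, with 18.0% and 14.9% of their ends shared with other transcripts. Ifngr1 exceeded Ifngr2 2.52, 2.37 and 3.36 times. Both TNF receptors were present, Tnfrsf1a at 84.0, 85.9 and 81.1 CPM and Tnfrsf1b at 64.6, 92.3 and 93.2 CPM, and neither was higher in all 3 libraries. Il17ra, a chain of the interleukin-17 receptor, was at 66.7 ± 3.29 CPM. The remaining detected members ran from 65.8 CPM for Il10rb down to 2.71 CPM for Csf3r, the G-CSF receptor. Il1r1, the signalling receptor for interleukin-1, had no count in 2 libraries and 5 counts in library 3. Kit, the stem cell factor receptor, and Il18r1, a chain of the interleukin-18 receptor, had no count.

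In this count table the Toll-like receptor system was unevenly filled, with 22 of 26 members detected. Cd14 led at 1531 CPM, and Unc93b1, the chaperone that brings endosomal Toll-like receptors to their compartment, followed at 498, 537 and 550 CPM (528 ± 27.2). Among the receptors, Tlr4, for lipopolysaccharide, was the highest at 149, 152 and 136 CPM (145 ± 8.35). Tlr7, for single-stranded RNA, was at 138, 125 and 115 CPM (126 ± 11.5). Tlr4 was above Tlr7 in every library, but their ranges overlapped. Tlr2, for bacterial lipoproteins, was at 99.0, 111 and 100 CPM (103 ± 6.63), and Tlr13, for bacterial ribosomal RNA, at 80.5 ± 12.3 CPM. Lower levels were seen for Tlr1 at 17.3 ± 2.62, Tlr8 at 16.8 ± 2.61, Tlr6 at 14.2 ± 1.49 and Tlr3, for double-stranded RNA, at 8.95 ± 1.58 CPM. Tlr9, the receptor for CpG DNA, had 0, 0 and 1 counts, and so did Tlr12, while Tlr5, the flagellin receptor, and Tlr11 had none. The signalling adaptors were all present: Myd88 at 87.8 ± 9.13, Ticam1 at 33.4 ± 1.60, Ticam2 at 32.2 ± 5.44 and Tirap at 16 ± 6.57 CPM. The kinase Irak1 was at 170 ± 4.73 CPM, above Irak2 at 67.6 ± 11.2 and Irak4 at 51.5 ± 0.659 CPM. Cd14 exceeded Tlr4 10.6 ± 0.973 times, and Tlr4 exceeded Ly96, which encodes the co-receptor MD-2, 5.04 ± 0.643 times.

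**Figure D2:**
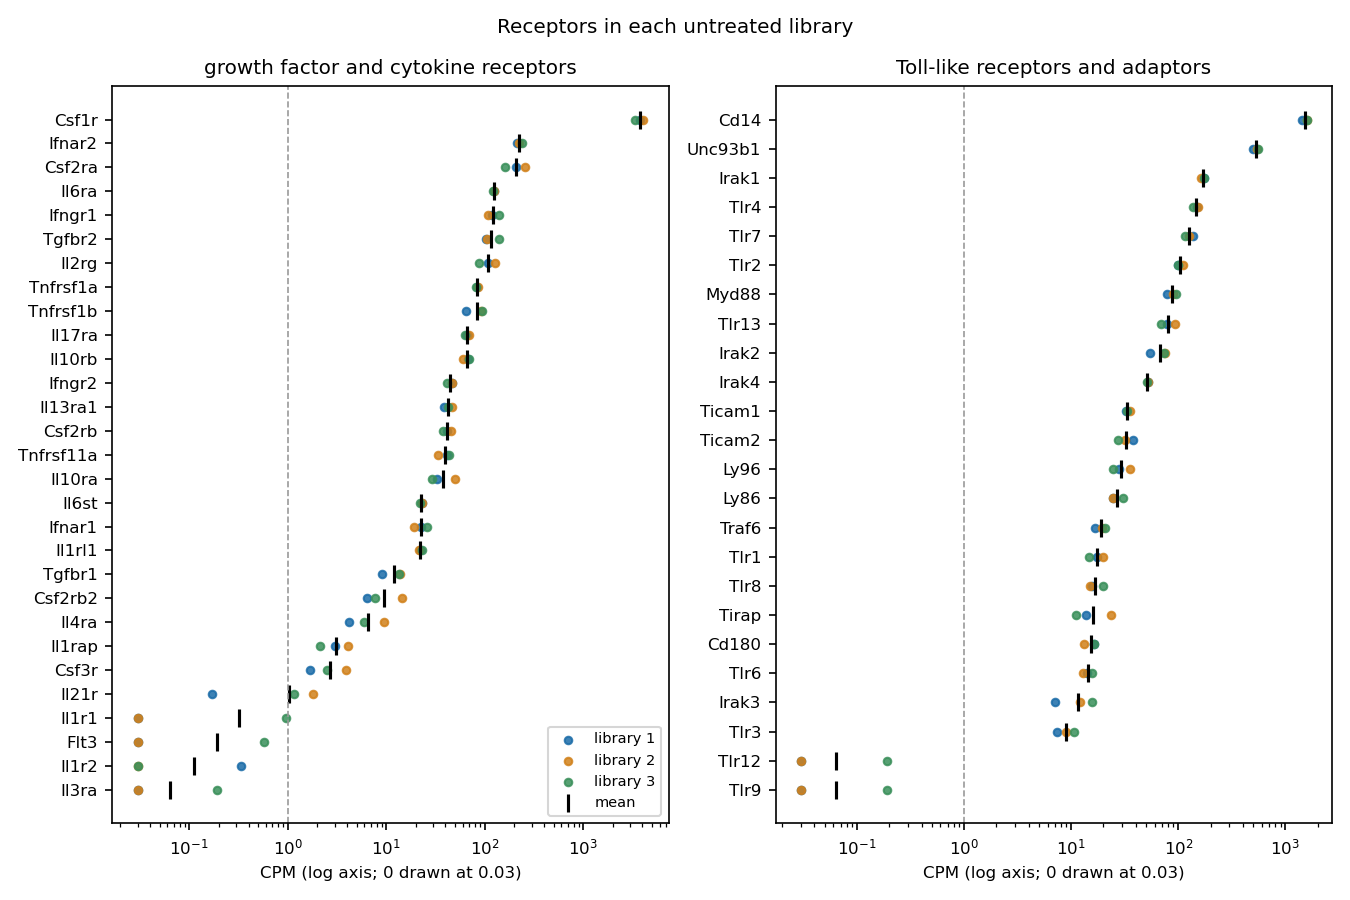
CPM in each of the 3 untreated libraries (coloured points, log axis) and their mean (black tick) for the growth factor and cytokine receptors and for the Toll-like receptors and adaptors that had any count. The dashed line marks 1 CPM; Csf1r at 3748 CPM and Cd14 at 1531 CPM stand apart from the other members, and Tlr9 and Tlr12 lie at 1 count in library 3 alone.

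Lectin receptors for fungal and damaged-cell ligands were detected in 15 of 21 cases. Clec12a, an inhibitory receptor, led at 258, 266 and 259 CPM (261 ± 4.39). Clec7a, which encodes the beta-glucan receptor Dectin-1, was at 176, 219 and 181 CPM (192 ± 23.3), and its range overlapped that of Clec4d at 182 ± 14.8 CPM. Clec5a was at 158 ± 4.07, Cd33 at 95.9 ± 10.3 and Clec4e, which encodes Mincle, at 89.3 ± 3.66 CPM. Clec10a and Clec4a2 were at 71.2 ± 8.11 and 36.9 ± 3.78 CPM. Mrc1, the mannose receptor often used as a marker of alternative activation, was at 37.6, 27.7 and 32.1 CPM (32.5 ± 4.96). Clec4a3 was at 20.8 ± 2.51 CPM, and the lowest detected member was Siglece at 1.83 CPM. Cd209a, Cd209b and Siglech had no count.

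Of 25 cytosolic sensors and inflammasome components, 23 were detected, and none reached 100 CPM. Casp1, the protease that matures interleukin-1 beta, was at 92.4, 91.0 and 86.5 CPM (90.0 ± 3.09), and Nek7, which binds NLRP3, at 81.7 ± 1.53 CPM. The DNA sensor cGAS, listed under its symbol Mb21d1, was at 73.8 ± 4.37 CPM and its adaptor STING, listed as Tmem173, at 44.9 ± 1.58 CPM. Aim2, another DNA sensor, was at 66.6 ± 11.3 CPM. Gsdmd, the pore-forming gasdermin D, was at 50.8, 82.6 and 54.4 CPM (62.6 ± 17.5), highest in library 2. The RNA sensor RIG-I, listed as Ddx58, was at 51.6 ± 10.3, Casp8 at 47.3 ± 6.1 and Mavs, the adaptor of RNA sensors, at 35.8 ± 4.31 CPM. Ifih1, which encodes MDA5, was at 30.4 ± 1.20 CPM. Nlrp3 was at 15.2, 26.2 and 28.1 CPM (23.2 ± 6.97). Pycard encodes ASC, the adaptor that joins NLRP3 to caspase-1 and that this line is known to lack. It had 4, 8 and 3 counts and a mean of 0.854 CPM, under the detection limit. Mefv, which encodes pyrin, had no count.

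Fc receptors and their signalling partners formed one of the fullest groups, with 21 of 23 detected and 11 at 100 CPM or more. The adaptors that carry activation motifs led: Tyrobp, which encodes DAP12, at 1735, 1484 and 1503 CPM (1574 ± 139) and Fcer1g, the common Fc gamma chain, at 1435, 1448 and 1437 CPM (1440 ± 7.07). Tyrobp was above Fcer1g in every library. Lilrb4a was at 906 ± 20.4 CPM, but all of its last 300 exonic bases are shared with another annotated transcript, so this level is uncertain. Sirpa, the receptor of the don't-eat-me signal CD47, was at 696 ± 68.7 CPM and exceeded Cd47 itself 3.82 ± 0.302 times in the same cells. Fcgr3, an activating receptor for IgG, was at 502 ± 4.37 CPM, and it exceeded the inhibitory Fcgr2b 22.1, 24.7 and 21.9 times. Trem2, a lipid receptor that signals through DAP12, was at 430, 387 and 391 CPM (403 ± 23.9), 0.256 ± 0.00720 times the level of Tyrobp. Lat2, Lyn and Vav1 followed at 314 ± 10.3, 189 ± 9.21 and 137 ± 4.83 CPM, and the whole end of Lat2 lies across from Rfc2 on the other strand. Syk, the kinase that the activation motifs recruit, was at 48.1 ± 2.58 CPM. Trem1, which amplifies inflammatory signals, had 1 count in all.

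Scavenger and efferocytosis receptors and their bridging proteins were detected in 16 of 23 cases. Gpnmb was at 10066, 9665 and 10544 CPM, and Cd68, a lysosomal glycoprotein used as a macrophage marker, was next at 1112 ± 24.3 CPM. Msr1, the class A scavenger receptor, was at 303, 338 and 272 CPM (304 ± 33.0). Lrp1 was at 216, 348 and 330 CPM (298 ± 71.6), lowest in library 1. Gas6, the bridging ligand for apoptotic cells, was at 296 ± 41.5 CPM. Of the receptors that Gas6 binds, Mertk was at 8.94, 6.40 and 6.73 CPM, while Axl had 0, 5 and 3 counts and Tyro3 0, 3 and 17 counts, and neither passed the detection rule. Cd300a was at 288 ± 36.0, Scarb2, a lysosomal membrane protein, at 167 ± 6.28 and Colec12 at 132 ± 5.37 CPM. Mfge8, another bridging protein, was at 110 ± 10.6 and Cd36, a receptor for oxidized lipoprotein, at 89.9 ± 11.2 CPM. Marco, Cd163, Olr1 and Timd4 had no count.

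Chemoattractant receptors were the sparsest receptor group, with 10 of 23 detected. Cx3cr1, the fractalkine receptor, was at 395, 501 and 445 CPM (447 ± 53.2). C3ar1, for complement C3a, was at 226 ± 7.15 CPM and P2ry6, for UDP, at 127 ± 8.42 CPM. C5ar1 was at 43.5 ± 7.67 and Ptafr, for platelet-activating factor, at 37.8 ± 3.01 CPM. S1pr1 and Ccrl2 were at 16.6 ± 3.39 and 7.34 ± 1.99 CPM. Cxcr4 was at 5.22 ± 1.84 and Ccr2, the monocyte receptor for CCL2, at 4.81 ± 1.36 CPM, while Ltb4r1, for leukotriene B4, was at the limit with 1.06 ± 0.266 CPM. Ccr1, a receptor for several CC chemokines, had 4, 5 and 1 counts and was not detected. No count was seen for Ccr3, Ccr7, Cxcr2, Ackr3, Fpr1, P2ry12 or Adora2a.

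Adhesion molecules were detected in 22 of 27 cases. After Lgals3, the tetraspanin Cd63 was at 2494 ± 161 CPM, 547 ± 106 times the level of the tetraspanin Cd9 at 4.71 ± 1.18 CPM. With 46.3% of the end of Cd63 shared with other transcripts, this ratio is uncertain. Itga4, the alpha chain of VLA-4, was at 472, 519 and 477 CPM (489 ± 25.5). It exceeded Itgam, the CD11b chain used to mark myeloid cells, 4.27 ± 0.124 times, with Itgam at 113, 118 and 114 CPM (115 ± 2.61). The leukocyte phosphatase Ptprc, or CD45, was at 325 ± 6.22, Cd53 at 316 ± 16.2 and Cd44 at 258 ± 7.48 CPM. Adgre1, which encodes the macrophage antigen F4/80, was at 242, 246 and 234 CPM (240 ± 6.11). Itgb2, the beta chain that pairs with CD11b, was at 147 ± 3.99 and Itgb1 at 126 ± 12.9 CPM. Itgax, the CD11c chain, was at 15.2 ± 2.66 CPM. Itgad and Pecam1 had no count.

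Antigen presentation was split between the classes. For class I, B2m, the light chain, was at 4148 ± 34.6 CPM, and the heavy chain H2-D1 at 1718, 1909 and 1839 CPM (1822 ± 96.6). H2-D1 exceeded H2-K1, at 111 ± 8.73 CPM, 14.9, 19.0 and 15.9 times, but 28.0% of the end of H2-D1 and 10.6% of that of H2-K1 is shared with other transcripts, so this ratio is uncertain. The peptide loading protein Tapbp was at 429 ± 36.7 and the transporter Tap1 at 68.9 ± 7.04 CPM. Its partner Tap2 was at 15.2, 44.8 and 79.6 CPM (46.5 ± 32.2), and its mean was 30.0 CPM without library 3. For class II, the invariant chain Cd74 was at 485, 500 and 525 CPM (503 ± 20.6). The class II chains themselves were near the limit, with H2-Ab1 at 2.87, 2.79 and 0.577 CPM and H2-Aa at 1.52, 0.656 and 1.54 CPM, and H2-Eb1 had no count. Ciita, the class II transactivator, was at 1.69 ± 0.208 CPM. H2-DMa, the peptide exchanger, was at 34.8 ± 4.95 and Nlrc5, the class I transactivator, at 11.5 ± 2.49 CPM. The costimulatory genes Cd40, Cd80 and Cd86 were at 10.7 ± 4.64, 6.14 ± 0.912 and 6.1 ± 0.939 CPM, and Cd274, which encodes PD-L1, at 7.81 ± 2.06 CPM.

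Of 27 chemokines, 8 were detected (29.6%), near the 30.5% of all symbols. No count was seen for 16 of them, beside 19749 of all 35976 symbols. Ccl9, a chemokine that attracts CCR1-bearing cells, was at 526, 475 and 466 CPM (489 ± 32.4). Cxcl16, the transmembrane ligand of CXCR6, was at 246, 236 and 237 CPM (240 ± 5.84). Ccl3 was at 162, 181 and 161 CPM (168 ± 11.2) and its neighbour Ccl4 at 105, 101 and 84.8 CPM (96.7 ± 10.5). These 4 kept the same order in every library without overlap, and Ccl3 exceeded Ccl4 1.74 ± 0.181 times. Pf4, Cxcl2, Ccl6 and Ccl5 followed at 23.8 ± 4, 19.1 ± 6.32, 14.9 ± 0.900 and 11.3 ± 2.20 CPM. Cxcl10, an interferon-induced chemokine, had 30, 7 and 2 counts, and Ccl2, the monocyte attractant, 9, 2 and 14 counts, and each missed the detection rule in 1 library. The members without a count were Ccl7, Ccl8, Ccl11, Ccl12, Ccl17, Ccl22, Ccl24, Cxcl1, Cxcl3, Cxcl5, Cxcl9, Cxcl11, Cxcl12, Cxcl14, Cx3cl1 and Ppbp. All chemokines together took 0.107% ± 0.00458 of the counts.

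Among cytokines and growth factors, 20 of 41 were detected, and the leaders are proteins that macrophages make without stimulation. Grn, which encodes progranulin, was at 3951, 3732 and 3453 CPM (3712 ± 249). Spp1, the matrix protein osteopontin, was at 540, 561 and 671 CPM (591 ± 70.8), Mif at 592, 500 and 574 CPM (555 ± 48.8) and Igf1 at 454, 520 and 502 CPM (492 ± 34.0). The ranges of neighbours among these 3 overlapped, and 51.7% of the end of Mif is shared with other transcripts. Tgfb1, a suppressive cytokine, was at 162 ± 15.1 CPM. Vegfb was at 81.7 ± 10.6 and Il1rn, the natural antagonist of interleukin-1, at 82.3, 56.2 and 53.4 CPM (64.0 ± 15.9). Tnf was the highest of the classic inflammatory cytokines at 52.4, 40.3 and 51.5 CPM (48.1 ± 6.74). Pdgfa was at 34.5 ± 5.2 and Il18 at 33.2 ± 3.96 CPM. Il1b had 9, 15 and 0 counts and Il6 0, 4 and 5 counts, and neither was detected. Il1a, Il10, Il12a, Il12b, Il33, Il34, Ifnb1, Ifng, Csf2, Lif, Tnfsf11 and Tnfsf13 had no count.

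**Figure D3:**
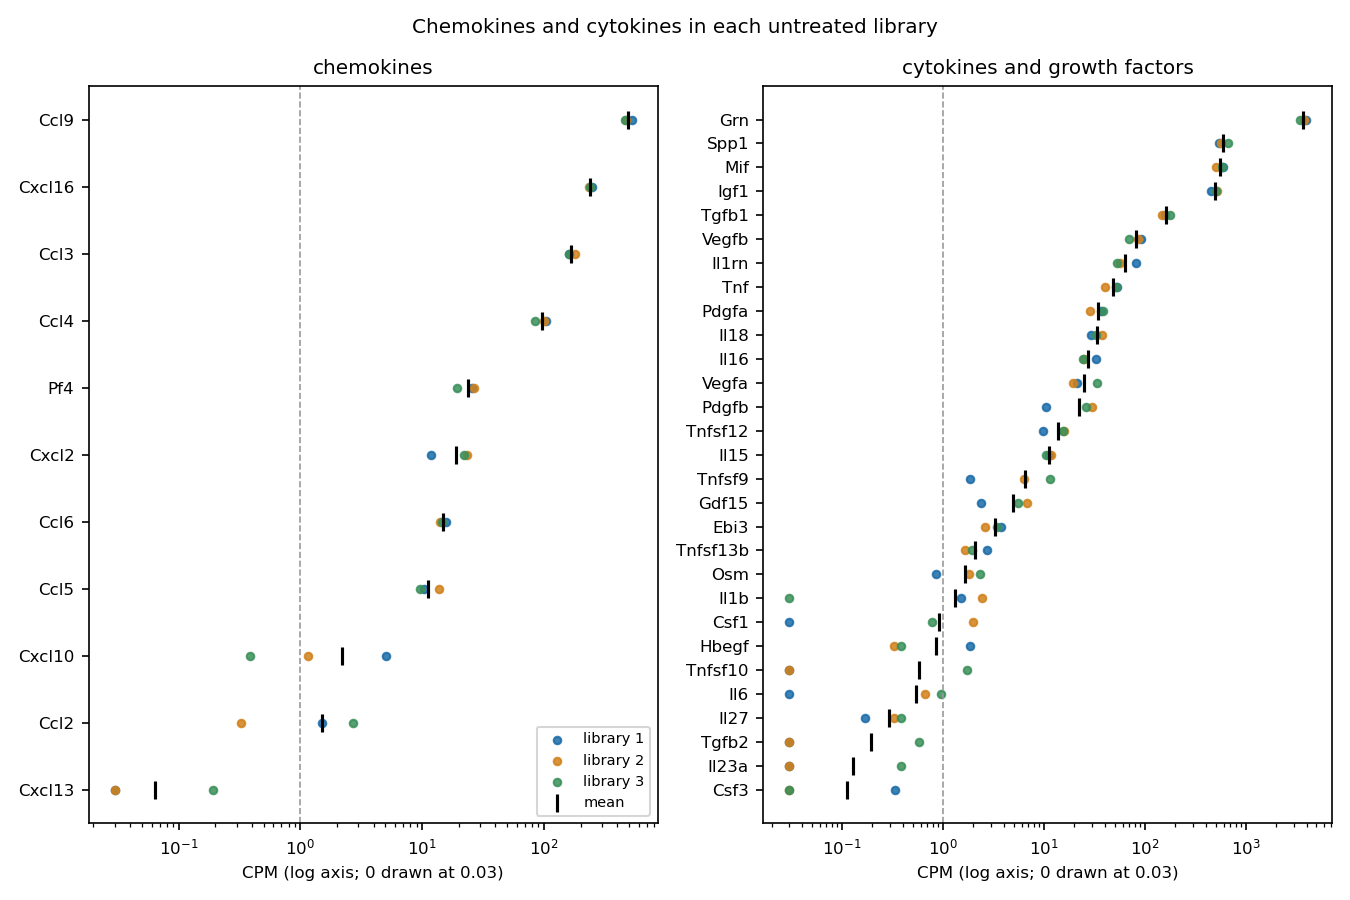
CPM in each of the 3 untreated libraries (coloured points, log axis) and their mean (black tick) for chemokines and for cytokines and growth factors with any count; points at the left edge are 0 counts and the dashed line marks 1 CPM. Ccl9, Cxcl16, Ccl3 and Ccl4 lie between 96.7 and 489 CPM on average, and Grn at 3712 CPM is the highest of both groups.

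Complement genes were detected in 9 of 18 cases. Cfp, which encodes properdin, a stabilizer of the alternative pathway, was at 167, 150 and 159 CPM (159 ± 8.46). The membrane regulator Cr1l was at 110 ± 1.81, Cd59a at 30.1 ± 6.63 and C1ra at 18.4 ± 4.46 CPM. C3, the central component, was at 12.8 ± 3.74 CPM and Cfb at 5.68 ± 1.67 CPM, with 86.0% of the end of Cfb shared with other transcripts. The 3 chains of C1q, which many tissue macrophages make in large amounts, were low here: C1qb was at 5.10 ± 1.43 and C1qc at 1.66 ± 0.696 CPM, and C1qa at 0.920 ± 0.201 CPM missed the detection rule. C1s1, C2, C6, C9, Cd55, Cfd and Serping1 had no count.

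Other secreted proteins, proteases and inhibitors were detected in 21 of 40 cases. Both mouse lysozyme genes were expressed, and Lyz1, the copy best known from Paneth cells of the intestine, was the higher. Lyz1 was at 11238, 11165 and 9356 CPM and Lyz2, the copy used as a myeloid marker, at 1869, 1575 and 1273 CPM (1572 ± 298). Lyz1 exceeded Lyz2 6.01, 7.09 and 7.35 times. Both were lowest in library 3, and 28.4% of the last 300 transcript bases of each is shared with other transcripts, so the exact split between the copies is uncertain. The copies lie in tandem on the minus strand of chromosome 10, Lyz1 from 117287795 to 117292868 and Lyz2 from 117277541 to 117282272. Their 250 bases upstream of the RefSeq start are shown because 2 copies with like promoters differed in level. Capitals mark the longest run that both share, written 5′ to 3′ on the gene's strand (RefSeq, GRCm38.p6).
Lyz1, chr10:117292869-117293118: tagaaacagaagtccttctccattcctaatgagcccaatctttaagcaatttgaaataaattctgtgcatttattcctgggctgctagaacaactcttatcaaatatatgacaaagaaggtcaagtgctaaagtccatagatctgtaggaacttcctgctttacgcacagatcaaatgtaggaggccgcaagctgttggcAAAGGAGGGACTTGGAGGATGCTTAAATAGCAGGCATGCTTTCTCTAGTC
Lyz2, chr10:117282273-117282522: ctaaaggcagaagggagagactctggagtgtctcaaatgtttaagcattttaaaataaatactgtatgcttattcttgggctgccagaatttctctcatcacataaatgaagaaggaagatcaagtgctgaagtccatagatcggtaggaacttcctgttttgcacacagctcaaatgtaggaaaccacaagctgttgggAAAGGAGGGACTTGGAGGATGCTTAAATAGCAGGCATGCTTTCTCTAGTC
The windows were identical at 200 of 248 aligned bases (80.6%), and the last 50 bases before the start were the same.

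Cst3, the cysteine protease inhibitor cystatin C, was at 2080 ± 155 CPM, and Lpl, lipoprotein lipase, at 1191, 1494 and 1433 CPM (1373 ± 160). Lgals1, galectin-1, was at 879 ± 43.6 CPM. Adam17, the sheddase that releases TNF from the membrane, was at 313 ± 43.8 CPM, with its whole end across from Iah1 on the other strand. Psap, the precursor of saposins, was at 278 ± 47.8, Anxa1 at 172 ± 27.4, Timp2, an inhibitor of matrix proteases, at 106 ± 7.28 and Adam10 at 66.5 ± 7.10 CPM. Matrix metalloproteases were near or under the limit. Mmp9 was at 1.99 ± 1.28 and Mmp12, macrophage elastase, at 1.13 ± 0.622 CPM, Mmp8, Mmp14 and Mmp2 were not detected, and Mmp13 had no count. Apoe, a lipid carrier abundant in many macrophages, was at 2.19, 8.69 and 9.80 CPM (6.90 ± 4.11). No count was seen for Chil3 and Retnla, products of alternatively activated macrophages, or for Lcn2, Camp, Tgfbi and Timp3.

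Lysosomal genes were the best covered of the macrophage lists, with 34 of 35 detected, 20 of them at 100 CPM or more, and 2.06% ± 0.0327 of all counts. Cathepsins led: Ctsb at 2927, 2853 and 2720 CPM (2833 ± 105), Ctss at 2843, 2782 and 2770 CPM (2798 ± 39.1) and Ctsd at 2667, 2670 and 2593 CPM (2644 ± 43.4). The first and second overlapped between libraries, while Ctss was above Ctsd in each. The end of Ctsb lies wholly across from Fdft1 on the other strand. The membrane protein Lamp1 was at 2275 ± 109 and Npc2, a cholesterol carrier of the lysosome, at 1725 ± 63.5 CPM. Laptm5, a lysosomal protein of blood cells, was at 1320 ± 18.7 CPM. The protease Ctsl, the hexosaminidase chain Hexa and Lamp2 followed at 736 ± 59.6, 695 ± 46 and 526 ± 28.9 CPM. Acp5, the tartrate-resistant phosphatase, was at 1.35, 5.25 and 1.73 CPM, and 1.54 CPM without library 2. Ctsh had 4, 8 and 0 counts and was the member not detected.

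Lysosomal genes are known targets of the factor TFEB, which binds E boxes, and Tfeb itself was at 18.0, 26.6 and 31.7 CPM (25.4 ± 6.91). The 250 bases before the RefSeq starts were therefore searched for the E box CACGTG, which reads the same on both strands. It was present in 11 of 31 windows (27 genes) of detected lysosomal genes (35.5%). It was found in 8.58% of the windows of detected genes and in 6.02% of all 32851 RefSeq windows. This share was looked at once the levels were known, and a match is a description of letters, not a binding site. The 3 most abundant lysosomal genes with a match are shown, with each match in capitals.
Ctsd, chr7:142387828-142388077, minus strand: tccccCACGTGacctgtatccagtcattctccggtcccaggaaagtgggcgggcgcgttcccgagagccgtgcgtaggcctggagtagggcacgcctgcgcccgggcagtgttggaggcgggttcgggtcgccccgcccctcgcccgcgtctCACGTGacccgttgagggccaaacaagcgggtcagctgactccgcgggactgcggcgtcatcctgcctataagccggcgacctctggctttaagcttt
Lamp1, chr8:13158911-13159160, plus strand: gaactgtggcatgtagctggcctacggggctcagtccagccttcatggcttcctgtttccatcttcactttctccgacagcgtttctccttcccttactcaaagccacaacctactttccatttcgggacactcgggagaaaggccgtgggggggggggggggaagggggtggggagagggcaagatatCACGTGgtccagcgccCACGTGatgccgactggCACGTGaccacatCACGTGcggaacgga
Ctsl, chr13:64370521-64370770, minus strand: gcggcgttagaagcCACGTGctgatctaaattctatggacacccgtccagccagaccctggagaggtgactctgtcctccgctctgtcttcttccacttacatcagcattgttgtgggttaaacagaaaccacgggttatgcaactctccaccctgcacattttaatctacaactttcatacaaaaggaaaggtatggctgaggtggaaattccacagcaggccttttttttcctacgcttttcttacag
Lamp1 held 4 matches, the farthest 61 bases before the start. Ctsd held 2 and Ctsl 1. The other matches were in Lgmn, Ctsf, Ctsa, Naglu, Gla, Glb1, Mcoln1 and Gaa, whose levels ran from 359 down to 39.5 CPM.

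The same windows differed by level for general promoter motifs, searched on both strands, none of which contains another. The GC box GGGCGG was in 57.2% of windows of detected genes, 60.4% at 100 CPM or more, 50% of the 84 windows at 1000 CPM or more and 17.8% of windows of genes with no count. For the TATA box TATAAA the shares were 6.27% for detected genes, 7.19% at 100 CPM or more, 14.3% at 1000 CPM or more and 16.9% for genes with no count. The base pair step CG occurred on average 16.6, 17.8, 14.2 and 5.57 times per window in these sets, in the same order. The motif shares were not adjusted for this base composition. Windows were at hand for 8366 of the 10968 detected genes and for 74 of the 108 at 1000 CPM or more. GAGGAA, a sequence read by PU.1, was in 22.6% of windows of detected genes, 23.5% of windows of genes with no count, 29.8% at 1000 CPM or more and 23.3% of all windows. It was in 8 of 20 windows of the Fc receptor and signalling list, which come from 15 genes, in 9 of 31 of the lysosomal list and in 2 of 5 of the chemokine list, and no list was tested against the rest.

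The enzymes of the oxidative burst were strongly expressed. Cybb, the catalytic subunit of the phagocyte NADPH oxidase, was at 3245, 3371 and 3186 CPM (3267 ± 94.3), and it exceeded its membrane partner Cyba 4.41, 4.99 and 4.58 times. Cyba was at 703 ± 30.2 CPM, and the cytosolic subunits Ncf1 and Ncf4 at 663 ± 48.1 and 136 ± 11.8 CPM. The GTPase Rac2 was at 698 ± 26.3 and Rac1 at 307 ± 10.7 CPM. The protective enzymes Prdx1, Sod1 and Sod2 were at 1156 ± 66.5, 829 ± 21.9 and 121 ± 11.3 CPM. Txnrd1, Hmox1, Gclc, Gclm and Slc7a11 are among the targets of NRF2 and do not stand for all of them. Txnrd1 was at 112 ± 2.45, Hmox1 at 98.1, 86.4 and 95 CPM (93.2 ± 6.06) and Gclc at 70.4 ± 3.21 CPM. Gclm was at 30.0 ± 6.54 and Slc7a11, the cystine transporter, at 24.0 ± 4.56 CPM. Nqo1, another NRF2 target, had no count. Acod1, the enzyme that makes itaconate from cis-aconitate, was at 11.1, 16.4 and 11.9 CPM (13.2 ± 2.84). It lies on chromosome 14 from 103047012 to 103056573. Nos2, the inducible nitric oxide synthase, had 0, 4 and 5 counts and was not detected. Arg1, which competes for arginine, had no count, as did Ido1 and Mpo. In all, 20 of the 26 members of the list were detected.

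Iron genes were detected in 12 of 14 cases, and the storage proteins dominated. Fth1 exceeded the light chain Ftl1, at 867, 725 and 700 CPM (764 ± 89.8), 7.20, 7.95 and 8.13 times, but 84.4% of the end of Ftl1 is shared with other transcripts and its level is uncertain. Tfrc, the transferrin receptor, was at 73.9, 84.6 and 73.6 CPM (77.4 ± 6.28), and Cp, the ferroxidase ceruloplasmin, at 79.3 ± 17.6 CPM. Slc11a1, the phagosomal metal transporter whose alleles decide resistance to intracellular bacteria, was at 56.2 ± 8.74 CPM. Ireb2 was at 52.1 ± 4.78, Slc11a2 at 33.9 ± 4.29, Steap3 at 33.7 ± 8.37, Aco1 at 32.3 ± 5.24 and Hfe at 30.2 ± 4.57 CPM. The iron exporter Slc40a1 was near the limit at 3.04, 0.984 and 4.04 CPM. Hamp, the hormone hepcidin, and the iron-trapping Lcn2 had no count.

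Glycolysis and the pentose phosphate pathway were represented by 29 detected genes of 33, with 0.629% ± 0.0154 of all counts. Pkm, pyruvate kinase, was at 1852, 1754 and 1609 CPM (1739 ± 122) and Aldoa, an aldolase, at 1456, 1398 and 1410 CPM (1421 ± 30.4). Gpi1 was next at 606 ± 19.5 CPM. The pentose phosphate enzymes Tkt, Taldo1 and Pgd stood together at 424 ± 65.0, 372 ± 21.5 and 304 ± 29.7 CPM, above G6pdx, the entry enzyme, at 108 ± 7.93 CPM. Tpi1, Pfkp and Aldoc were at 174 ± 16, 127 ± 2.21 and 124 ± 16.5 CPM. The lactate exporter Slc16a3 was at 125 ± 4.10 and Ldha, lactate dehydrogenase A, at 106, 91.0 and 79.6 CPM (92.0 ± 13), so that Pkm exceeded Ldha 19.0 ± 1.36 times, with 18.7% of the end of Ldha shared. Hexokinases Hk2 and Hk1 were at 89.8 ± 6.99 and 74.8 ± 9.57 CPM. The glucose transporter Slc2a6 was at 87.4 ± 15.4 CPM, above Slc2a1 at 36.7 ± 9.91 CPM. Ldhb and Pklr had no count.

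Several enzymes of this pathway that cells commonly express strongly were low. Gapdh was at 43.0, 37.4 and 31.1 CPM (37.2 ± 5.93) and Eno1 at 7.08, 9.18 and 7.11 CPM (7.79 ± 1.20). For both, most of the transcript end is shared with other annotated transcripts, 87.4% for Gapdh and 88.4% for Eno1. Pgk1 was at 4.05, 4.10 and 1.92 CPM (3.36 ± 1.24), and no part of its end was shared. In a list of 40 genes that every cell uses, all 40 were detected, but 5 were under 20 CPM, Pgk1, Actg1, Tbp and Tmsb10 among them, and Actg1, the second cytoplasmic actin, was at 3.38 ± 1.66 CPM. Of these 40 genes, 8 had at least 50% of their end shared, with a median of 556 CPM, against 385 CPM for the other 32. The part that read assignment played in these levels was not tested. A low or missing count therefore describes this count table, and a level near the limit is not by itself evidence that the transcript was missing from the cells.

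The TCA cycle and the enzymes that feed it were almost complete, with 37 of 40 detected and a median of 109 CPM among the detected members. Mdh2, the mitochondrial malate dehydrogenase, was at 501, 483 and 501 CPM (495 ± 10.4). Subunits of succinate dehydrogenase, the enzyme that itaconate is known to inhibit, were at 374 ± 16.6 for Sdhb, 221 ± 13.7 for Sdha and 131 ± 6.77 CPM for Sdhc. The remaining subunit gene, Sdhd, was at 14.2, 52.8 and 72.5 CPM (46.5 ± 29.7), lowest in library 1, and Sdhb exceeded it 27.3, 6.72 and 5.23 times. Mdh1, Glud1 and Idh1 were at 310 ± 30.4, 294 ± 10.7 and 264 ± 14.1 CPM. Cs, citrate synthase, was at 204, 217 and 271 CPM (230 ± 35.5), Fh1, fumarase, at 214 ± 7.76, Idh2 at 194 ± 7.43 and Idh3g at 189 ± 12.5 CPM. Pcx, pyruvate carboxylase, was at 2.34 ± 0.697 CPM. Pdk4 and Cpt1b had no count.

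**Figure D4:**
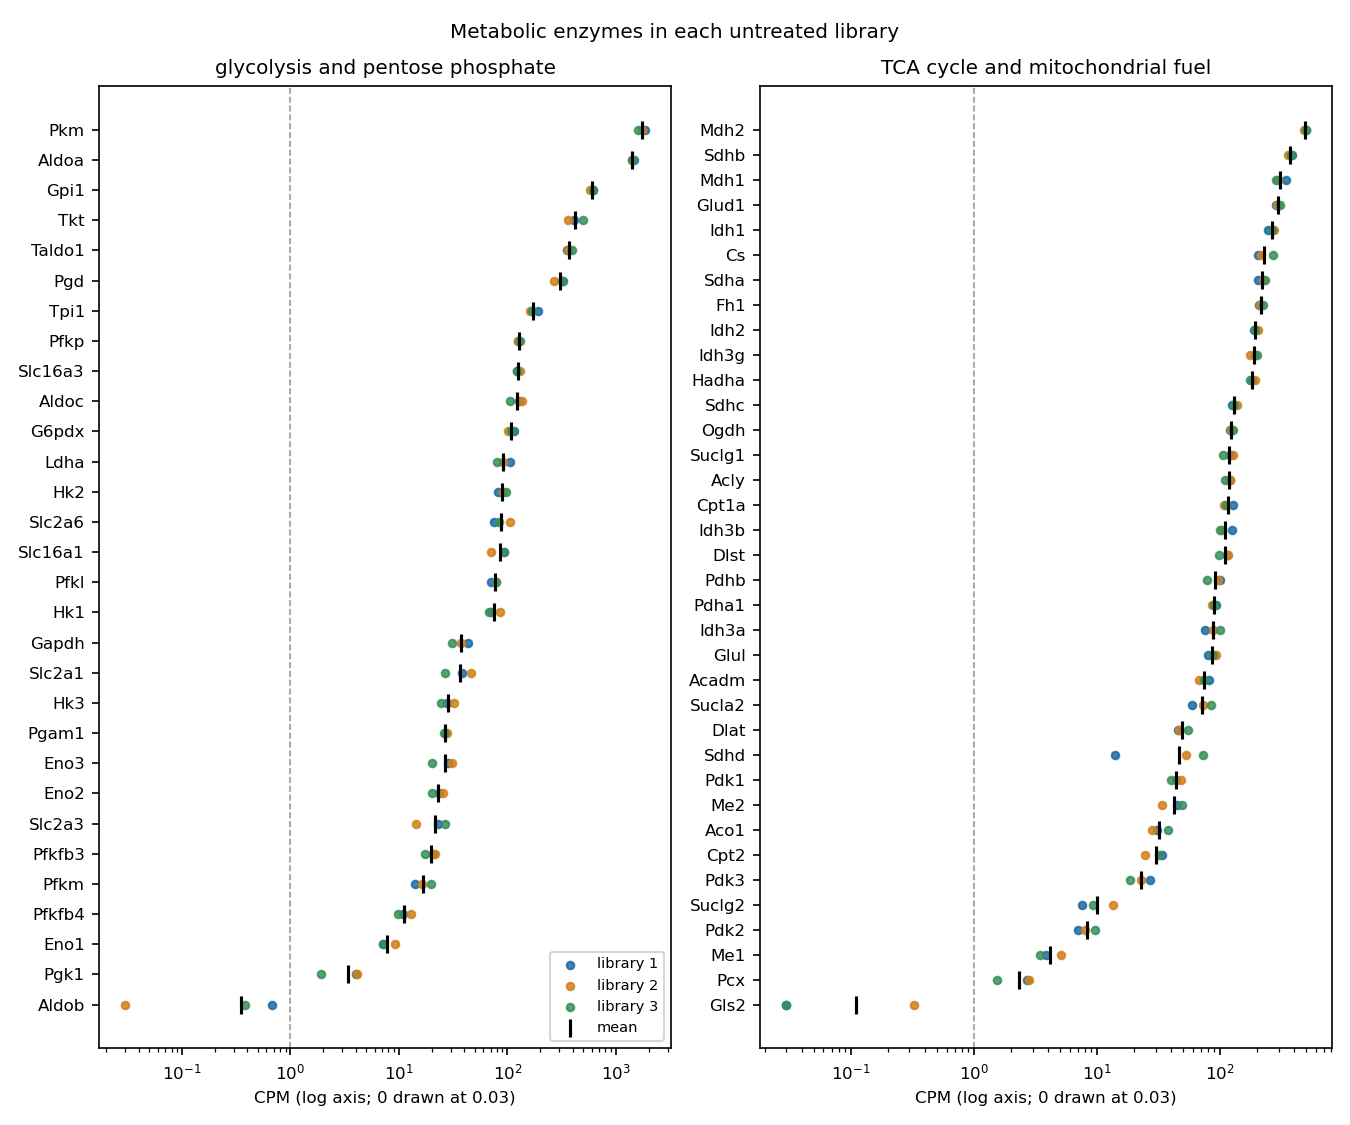
CPM in each of the 3 untreated libraries (coloured points, log axis) and their mean (black tick) for the enzymes and transporters of glycolysis and the pentose phosphate pathway and for those of the TCA cycle and mitochondrial fuel, for the members reported here that had any count. The dashed line marks 1 CPM; Pkm and Aldoa exceed 1000 CPM, Pgk1 and Eno1 are under 10 CPM, and library 1 of Sdhd, at 14.2 CPM, lies apart from the other libraries.

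Mitochondrially encoded transcripts were split into 7 detected genes, from 1101 CPM for ND5 to 18354 CPM for ND4, and 6 that were not. ND4 was at 17261, 21299 and 16503 CPM, highest in library 2, and CYTB was highest there too, at 9808, 11795 and 10324 CPM. ATP6, COX3 and ND3 had 4, 4 and 3 counts in all, and COX2, ATP8 and ND4L none. Of the undetected genes, all but ATP8 had 98.8% to 100% of their end shared with other annotated transcripts, while the detected genes other than COX1 had at most 34.5%. COX1, at 1245 ± 59.7 CPM, had 100%, so the share alone did not separate the sets.

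Lipid genes were detected in 28 of 30 cases. Plin2, the coat protein of lipid droplets, was at 999, 979 and 932 CPM (970 ± 34.3). Soat1, which esterifies cholesterol, was at 458, 401 and 460 CPM (440 ± 33.6), Fasn, fatty acid synthase, at 233 ± 13.6 and the cholesterol exporter Abcg1 at 221 ± 18.8 CPM. Abca1, the other exporter, was at 25.6 ± 4.28 CPM. Pnpla2, a triglyceride lipase, was at 150 ± 10.3, Fads1 at 136 ± 9.20, Scd2 at 116 ± 17.6, Elovl5 at 114 ± 2.48, Fabp5 at 107 ± 19.2 and Acsl4 at 98.3 ± 2.21 CPM. Scd1, another desaturase, was at 13.1 ± 1.60 CPM. Dgat2 and Mgll were not detected.

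Of 20 eicosanoid enzymes and receptors 11 were detected, led by genes of leukotriene and prostaglandin D2 synthesis. Alox5ap, the protein that activates 5-lipoxygenase, was at 415, 391 and 404 CPM (404 ± 11.8). Hpgds, which makes prostaglandin D2, was at 245, 235 and 248 CPM (243 ± 6.63), Ltc4s, leukotriene C4 synthase, at 140 ± 9.52 and Ptges3 at 130 ± 11.8 CPM. Pla2g4a, the phospholipase that frees arachidonic acid, was at 78.7 ± 4.67, Alox5 at 67.2 ± 8.20, Lta4h at 30.4 ± 2.92, Ptges2 at 25.6 ± 2.78, the receptor Ptger4 at 25.3 ± 0.928 and Hpgd at 4.34 ± 2.26 CPM. Ptgs1, the constitutive cyclooxygenase, was at 4.01 ± 1.01 CPM. Ptgs2, the inducible one, had 3, 7 and 5 counts, a mean of 0.872 CPM, under the limit. Ptgis had no count.

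Cell cycle genes were detected in 31 of 34 cases and took 0.271% ± 0.0105 of all counts. The highest was Cdkn1a, which encodes the cell cycle inhibitor p21, at 432, 416 and 424 CPM (424 ± 7.59). Cdk6 and Cdk4, the kinases of G1, were at 308 ± 17.7 and 145 ± 7.14 CPM, and Ccnd1, their cyclin, at 123 ± 5.13 CPM. The ends of Cdk4 and Ccnd1 lie wholly across from other genes on the opposite strand. Top2a, a topoisomerase of dividing cells, was at 284, 260 and 297 CPM (280 ± 18.5), and Mki67, the proliferation marker, at 131, 113 and 156 CPM (134 ± 21.5). The replication licensing genes Mcm7 and Mcm3 were at 147 ± 14.5 and 138 ± 13.8 CPM. Mdm2 was at 89.6 ± 9.33 and Cdk1, the mitotic kinase, at 76.7 ± 8.80 CPM. Trp53 was at 24.7 ± 2.07 CPM and Abl1, the cellular counterpart of the Abelson oncogene, at 28.6 ± 2.34 CPM. Myc had 3, 0 and 0 counts. Cdkn2a and Cdkn2b, inhibitors that lie side by side and are lost in many immortal lines, had no count.

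Interferon-stimulated genes were detected in 25 of 28 cases, although Ifnb1 had no count and the median of the detected members was 32.5 CPM. Ifitm3, which blocks virus entry, was at 1872, 1918 and 2011 CPM (1934 ± 70.5). Ifi44 was at 280, 307 and 350 CPM (313 ± 35.5) and Bst2, which tethers virus particles, at 231, 208 and 294 CPM (244 ± 44.4). Rtp4 was at 114 ± 21.2 CPM, and the factors Irf7 and Irf9 at 92.3 ± 11.3 and 75.5 ± 15.6 CPM. Usp18, Oas2, Eif2ak2 and Oas3 were at 54.3 ± 5.35, 50.4 ± 7.36, 42.6 ± 9.76 and 41.1 ± 11.4 CPM. The Ifit genes were low, with Ifit2 at 6.09 ± 1.44, Ifit3 at 4.85 ± 2.76 and Ifit1 at 3.17 ± 1.20 CPM. Isg15 had 0, 0 and 2 counts, and Mx1 and Gbp2 also missed the detection rule.

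RAW264.7 can form osteoclasts when it receives RANKL, and 14 of 18 genes of that programme were detected, 1 of them at 100 CPM or more. Tcirg1, a subunit of the proton pump, was at 367, 296 and 284 CPM (316 ± 44.6). Atp6v0d2, another subunit, was at 77.7 ± 14.6 and Nfatc1, the master factor of osteoclasts, at 46.4, 47.7 and 47.3 CPM (47.1 ± 0.687). Tnfrsf11a, the receptor for RANKL, was at 39.7 ± 5.26 CPM, while its ligand Tnfsf11 had no count. Clcn7, Ostm1, Car2, Fos and Ctsk were at 39.3 ± 5.23, 33.2 ± 1.84, 29.3 ± 3.95, 27.9 ± 1.19 and 27.0 ± 5.08 CPM, and Traf6 at 18.8 ± 1.96 CPM. The fusion protein gene Dcstamp was at 5.52 ± 1.92 CPM, and Acp5 and Mmp9 were near the limit at 2.78 and 1.99 CPM. Itgb3, Ocstamp and Oscar were not detected, and Calcr, the calcitonin receptor of mature osteoclasts, had no count.

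Markers of particular tissue macrophages were mostly not detected, with 3 of 20 passing the rule (15%, beside 30.5% of all symbols). Cx3cr1 and Adgre1, which several macrophage types share, were the 2 above 100 CPM, and Hpgd followed at 4.34 CPM. No count was seen for Timd4, Clec4f, Vsig4, Marco, Car4, P2ry12, Sall1, Siglech, Vcam1, Lyve1, Cd209f or Cd163, which mark macrophages of liver, lung, brain and serous cavities. Of 10 monocyte markers 3 were detected (30%), near the 30.5% of all symbols. Ccr2 was at 4.81 ± 1.36, Ms4a4c at 3.09 ± 1.46 and Nr4a1 at 2.79 ± 1.20 CPM, and Ly6c1, Ly6c2, F13a1, Cd177 and Plac8 had no count.

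Of the markers of other lineages 15.9% were detected, beside 30.5% of all symbols. Among 14 dendritic cell markers 5 were detected (35.7%), a higher share than in the monocyte list (30%) and the tissue macrophage list (15%). Of these 5, 2 exceeded 100 CPM: Tcf4, a factor of plasmacytoid dendritic cells, at 274, 294 and 290 CPM (286 ± 10.7), and Bst2, which is also an interferon-stimulated gene. Zbtb46, Cd24a and Xcr1 were at 2.97 ± 0.466, 2.68 ± 1.38 and 2.17 ± 0.946 CPM, and Batf3, Ccr7, Cd209a, Siglech and Ly6d had no count. Among 19 T and NK cell markers in the table, Cd28, the costimulatory receptor, was at 42.3, 47.1 and 44.2 CPM (44.5 ± 2.38), Il7r, the interleukin-7 receptor, at 33.6, 33.8 and 33.6 CPM (33.7 ± 0.112) and Lck at 4.72, 1.64 and 1.54 CPM. Lck was at 1.59 CPM without library 1. The defining T cell gene Cd3e had no count, and neither had Cd8a, Zap70, Tcf7, Gzma, Gzmb, Nkg7, Ncr1, Klrb1c or Cd2. Among 16 B cell markers, Blnk, an adaptor of B cell receptor signalling, was at 144, 136 and 138 CPM (140 ± 4.19) and Cd24a was the other one detected. Ms4a1, Cd79a, Cd79b, Pax5 and Ebf1, which define B cells, were at 0, as were Vpreb1, Igll1, Rag2, Dntt, Jchain and Blk.

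Summed over each list, the T and NK cell markers made 80.8 to 83.6 CPM per library, the B cell markers 140 to 149 CPM and the dendritic cell markers 509 to 595 CPM, nearly all from the genes just named. Neutrophil markers summed to 5.90 to 6.89 CPM, with 3 of 15 detected: Csf3r at 2.71 ± 1.14, Elane at 1.14 ± 0.355 and S100a8 at 1.03 ± 0.472 CPM. Ly6g, Mpo, Ctsg, Camp, Cxcr2, Retnlg and Lcn2 had no count. No mast cell or basophil marker of 10 was detected, and the sum was 0 to 0.984 CPM, all of it from Hdc, the enzyme that makes histamine. Erythroid and megakaryocyte markers summed to 27.5 to 34.9 CPM, mainly the platelet chemokine Pf4 at 23.8 CPM, with Vwf at 4.10 ± 0.471 and Gp1ba at 2.25 ± 1.32 CPM. Hba-a1, Hbb-bt, Epor and Gp9 had no count. Fibroblast, endothelial and epithelial markers summed to 4.22 to 6.92 CPM, with Acta2 at 1.80 ± 0.151 and Pdgfrb at 1.69 ± 0.193 CPM as the 2 of 20 detected. Col3a1, Dcn, Lum, Cdh5, Tek, Pecam1, Krt8, Krt18, Krt5, Krt14 and Cldn3 were at 0.

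The spread between the 3 libraries fell with the level of a gene. Across the 10968 detected genes, the correlation of log2 CPM (with 0.5 added) was 0.973 to 0.975 for the 3 pairs of libraries, which describes libraries of 1 line and is not a test. The root mean square coefficient of variation was 6.19% for genes at 1000 CPM or more, beside 0.933% from Poisson counting error, the least that separate libraries can be expected to show. It was 8.67% beside 3.17% from 100 to under 1000 CPM, 17.7% beside 8.08% from 10 to under 100 CPM, and 42.9% beside 23.9% from 1 to under 10 CPM. The biological coefficient of variation from edgeR's common dispersion was 14.1% over 9988 genes. Of 8084 genes averaging 10 CPM or more, the highest library exceeded the lowest at least 2 times for 239 (2.96%), and the median ratio was 1.24. Library 3 was the highest for 120 of these 239, library 2 for 66 and library 1 for 53. Of the 459 detected list members at 10 CPM or more, 7 differed that much (1.53%): Cd40, Cdkn2c, Irak3, Pdgfb, Sdhd, Tap2 and Tirap.

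**Figure D5:**
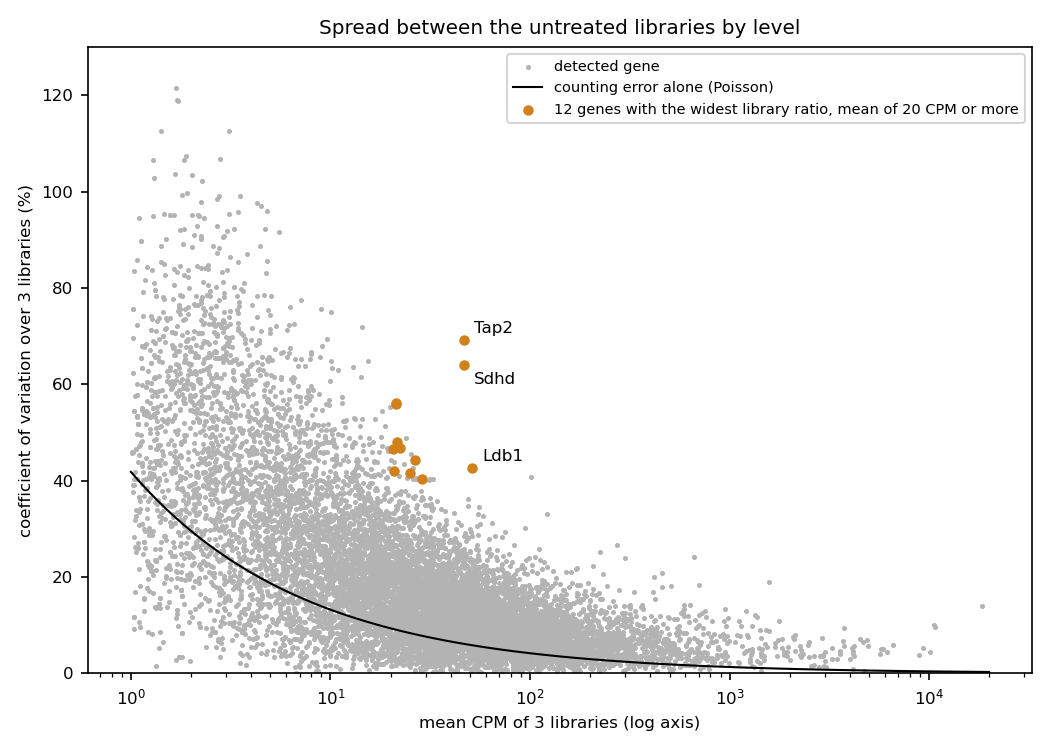
Coefficient of variation over the 3 untreated libraries (percent) against mean CPM (log axis) for each detected gene (grey), with the 12 named genes of widest library ratio (orange) and the variation that Poisson counting error alone gives (black line). Most genes above 1000 CPM vary by under 10%, and Tap2 and Sdhd, each near 46.5 CPM, lie far above genes of the same level.

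The 12 genes at 20 CPM or more with the widest ratio between libraries were led by Tap2 and Sdhd. Tap2 varied 5.24 times and Sdhd 5.12 times, and both were lowest in library 1 and highest in library 3. Isg20l2, an exonuclease-like protein, was at 9.44, 21.2 and 33.4 CPM, Atad5 at 9.61, 26.2 and 28.5 CPM, and the growth factor chain Pdgfb at 10.5, 30.2 and 26.1 CPM, each lowest in library 1. Ldb1, a LIM-domain binding cofactor, was at 29.3, 51 and 72.9 CPM, and Kctd13 at 10.8, 27.1 and 24.4 CPM. Hbp1 was lowest in library 3 at 9.80 CPM, as was Rabepk at 16 CPM. Deb1 and Sepw1 were lowest in library 2, at 13 and 13.1 CPM, against 32.9 and 29.8 CPM in library 1. Cops3 was at 15.3, 13.4 and 35 CPM. For these 12 genes the spread between libraries was too wide for the mean of 3 libraries to describe each of them.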

How the data were processed

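Total RNA was extracted with TRIzol and sequenced as 3′ mRNA libraries of the QuantSeq forward kit, per the labels' protocols. The authors deposited 1 table of whole-number counts per gene symbol for 6 libraries, of which the 3 control columns were used here. STAR 2.7.5a, HTSeq 0.6.1, edgeR and the mm10 build are named in the submitters' processing notes. How reads were trimmed, whether counting used strand, how reads with several matches were handled and which annotation was used: none of this is stated in the sources at hand. Counts were divided by the library total (5202626 to 6098934) to give CPM, and averaged. A mean ± SD is over 3 libraries. Since there is 1 group, no test was made. The dispersion was estimated with edgeR 4.0.16 in R 4.3.3, and its script was checked on simulated data. Transcript ends (last 300 exonic bases) were compared by 40-base words with all transcripts of GENCODE M21 on GRCm38, in which 803 of 804 listed symbols were found. Promoter windows came from RefSeq (GRCm38.p6).

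Named genes were the 20 with the highest mean, up to 10 highest members of each of the 35 lists with members at 0, and the 12 at 20 CPM or more with the widest ratio between libraries. Lower list members were also given, chosen after their values were seen. Some list members are counted but not reported here by name. The members, lists and motifs were chosen with earlier results of these data known. The alternatives tried were TMM and DESeq2 1.42.0 size factors, totals without mitochondrial genes, other detection limits, length scaling, and leaving out each library.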

Additional observations from a re-analysis of the deposited data

How the results depend on the processing

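No paired analysis was possible because only 1 group was described and no test was made. The number of detected genes ranged from 9224 with a limit of 5 CPM to 11190 without library 2. With the limit of 5 CPM, 6 markers of other lineages were detected in place of 17. Without the mitochondrially encoded genes the 100 most abundant genes took 28.11% of the counts in place of 30.78%. The number of genes whose highest library was at least 2 times the lowest depended on the filter: 239 at a mean of at least 10 CPM, 1649 with no filter beyond detection and 2 at a mean of at least 50 CPM. It was 87 to 111 when 1 library was left out, with 99 without library 1, 111 without library 2 and 87 without library 3. Fewer libraries leave fewer chances for a wide ratio. The most abundant member was kept in 26 of 35 lists when CPM was divided by transcript length, and in 34 when genes were ranked by the median library. The biological coefficient of variation as a fraction was 0.139 to 0.168. Alternatives for single genes were chosen after seeing the data. Of 36 gene means, 9 moved by 1 SD or more under the total without mitochondrial genes and none under TMM scaling. Of 552 detected list members, 106 moved that far under the same total and none under TMM scaling. That total raises all genes of a library by the same factor, so such a move marks genes with a small SD. Leaving out 1 of 3 libraries cannot move a mean by 1 SD, so it was read by ratio: over 552 detected list members, the mean moved over 1.5 times for 5 without library 1, 2 without library 2 and 2 without library 3, among them Tap2, from 46.5 to 30 CPM. Counting error, which depth sets, would give a coefficient of variation of 23.9% from 1 to under 10 CPM, beside the 42.9% measured there, and the source of the rest was not tested.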
